A study of Mus musculus with 14 samples.

Results

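Genes of the type I interferon response were followed in mouse ovaries as a set of 33 genes, chosen by name from the interferon-stimulated genes, and all 33 were found among the 56748 genes of the deposited table. The ovaries came from female wild-type (WT) C57BL/6J mice in a study of inflammatory bowel disease. Mice had been given dextran sulfate sodium (DSS), a sulfated sugar polymer that injures the lining of the colon and is widely used to produce colitis, or had served as controls. The 14 libraries fall into DSS day 89 (n = 4, replicates R29, R38, R78 and R89), control day 89 (n = 3, R123, R124 and R126), DSS day 7 (n = 4, 75, 80, 81 and 82) and control day 7 (n = 3, 10, 51 and 53). Day 7 is the end of the model and day 89 follows a long rest. The sources used here do not give the dose, the exposure or the age of the mice. They do not say either whether each library is a separate animal, so p-values measure the spread between libraries, which may be partly technical.

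Type I interferons are secreted when a cell's sensors meet viral or misplaced nucleic acid. They bind the receptor formed by Ifnar1 and Ifnar2, whose kinases Jak1 and Tyk2 phosphorylate Stat2. Stat2 and Irf9 are parts of a complex that binds the interferon-stimulated response element in promoters and switches on a large set of genes that degrade foreign RNA, block its translation, hold budding viruses at the membrane or damp the signal. Many of these genes have a basal level in tissues with no infection, and macrophages and plasmacytoid dendritic cells are among their usual sources. In bulk tissue, fewer cells of a type and less RNA per cell cannot be told apart.

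The promoters of 6 genes are shown because Ifit3b, Ifit1, Ifi44 and Ifi207 had the smallest p for DSS against control on either day among genes with a sequence in the RefSeq promoter table (GRCm38.p6), Bst2 had the highest level, and Ifit3 is the near copy of Ifit3b, added after its values were seen. Ifi27, with the highest level after Bst2, had no entry. Each line holds 250 bases upstream of the RefSeq start, 5′ to 3′ on the gene's strand, and capitals mark the core letters of the interferon-stimulated response element on either strand, which are GAAA, any bases NN and again GAAA in 1 run (TTTC, NN and TTTC when read on the other strand). The regions on GRCm38 are chr19:34607707-34607956 (plus strand) for Ifit3b, chr19:34583279-34583528 (plus) for Ifit3, chr19:34640639-34640888 (plus) for Ifit1, chr8:71537473-71537722 (minus) for Bst2, chr1:173741810-173742059 (minus) for Ifi207 and chr3:151749911-151750160 (minus) for Ifi44.
Ifit3b: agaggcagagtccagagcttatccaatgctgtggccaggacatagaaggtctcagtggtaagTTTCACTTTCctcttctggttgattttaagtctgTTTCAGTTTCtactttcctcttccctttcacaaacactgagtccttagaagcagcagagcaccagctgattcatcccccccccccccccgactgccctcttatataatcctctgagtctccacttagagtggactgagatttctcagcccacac
Ifit3: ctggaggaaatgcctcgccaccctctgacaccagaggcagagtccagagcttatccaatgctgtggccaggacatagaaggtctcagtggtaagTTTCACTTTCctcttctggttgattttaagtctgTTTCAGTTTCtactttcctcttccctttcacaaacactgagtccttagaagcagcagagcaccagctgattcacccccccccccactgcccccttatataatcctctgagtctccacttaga
Ifit1: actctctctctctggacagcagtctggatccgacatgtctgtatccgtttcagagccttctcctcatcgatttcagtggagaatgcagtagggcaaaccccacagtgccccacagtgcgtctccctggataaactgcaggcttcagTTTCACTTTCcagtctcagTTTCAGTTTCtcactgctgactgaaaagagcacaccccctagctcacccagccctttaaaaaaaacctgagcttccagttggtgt
Bst2: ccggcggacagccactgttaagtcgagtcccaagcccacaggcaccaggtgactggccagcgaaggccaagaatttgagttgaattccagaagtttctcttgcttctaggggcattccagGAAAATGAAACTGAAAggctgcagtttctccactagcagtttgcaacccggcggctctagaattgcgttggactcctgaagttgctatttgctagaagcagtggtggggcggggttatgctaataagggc
Ifi207: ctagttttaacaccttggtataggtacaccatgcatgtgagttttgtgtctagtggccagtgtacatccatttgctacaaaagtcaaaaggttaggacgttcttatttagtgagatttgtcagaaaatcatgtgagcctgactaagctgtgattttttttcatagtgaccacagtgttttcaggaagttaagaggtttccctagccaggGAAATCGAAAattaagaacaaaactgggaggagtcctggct
Ifi44: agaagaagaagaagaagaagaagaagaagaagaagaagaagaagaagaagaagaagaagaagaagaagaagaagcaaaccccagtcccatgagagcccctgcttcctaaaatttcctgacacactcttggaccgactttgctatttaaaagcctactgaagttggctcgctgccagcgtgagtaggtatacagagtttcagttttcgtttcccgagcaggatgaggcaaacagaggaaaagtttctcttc
Ifit3b, Ifit3 and Ifit1 each held the same pair of matches, TTTCACTTTC and TTTCAGTTTC. Bst2 held GAAAATGAAA and GAAACTGAAA, which overlap each other, and Ifi207 held GAAATCGAAA. No match to these letters lay in the window of Ifi44. Over windows reaching 250 bases before and 50 bases after the start, 12 of the 23 genes with an entry held the response element letters (52.2%), against 3.99% of 27025 genes in the table. The gamma-activated letters TTCNNNGAA lay in 5 of the 23 (21.7%), against 9.55% of all genes, and in Bst2 that match, TTCCAGGAA, overlapped the marked stretch. A match describes letters only and is not a measured binding site.

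Levels are given as FPKM, the fragments on a gene divided by its length in kilobases and by the depth of the library. In units of 1000000, the reads recovered from these values numbered 15.26 to 18.51 in each library. The depth implied by FPKM, divided by those reads, was 0.852 in DSS day 7 replicate 75. It was 1.055 to 1.073 in DSS day 7 replicates 80, 81 and 82. In control day 7 replicates 10, 51 and 53 it was 0.935, 0.999 and 0.913. At day 89 it was 0.995 to 1.024 in controls and 1.029 to 1.055 in DSS libraries. A larger depth gives a lower FPKM. Transcripts of the mitochondrial genome made up 14.2% of the reads of DSS day 7 replicate 75, and 9.96% and 12.2% in control replicates 10 and 53 of that day, against 0.479% to 4.04% in the other 11 libraries. These 3 are called the libraries of high mitochondrial share. Calls of the interferon genes for DSS against control at day 7, and between the days, are also given without them. Most other results that rest on day 7 include them. The labels name ovary while their extraction text speaks of retinas. The granulosa cell factor Foxl2 stood at 74.9 to 134 FPKM over the 14 libraries, and 8 retina markers summed to at most 1.51 FPKM in any library.

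The level of the interferon genes spanned a wide range. FPKM is a level per gene length, so genes may be set side by side. Bst2, or tetherin, which holds budding virus particles at the cell surface, was the highest with a mean of 392 FPKM over the 14 libraries. Ifi27, a small membrane protein of mitochondria and the nuclear envelope, followed at 107 FPKM, and its neighbour and relative Ifi27l2a at 41.7 FPKM. Ifi35, Irf1 and the ubiquitin-like modifier Isg15 averaged 14.4, 13.2 and 11.8 FPKM, and their ranges over libraries overlapped. Another 21 genes averaged from 1 to 10 FPKM and 6 averaged under 1. The lowest were Mx1, of the MX family, at 0.347 FPKM, and Oas3, a synthase of the oligoadenylates that activate RNase L, at 0.129 FPKM. Reads behind a single value ran from 4 for Oas3 to 10415 for Bst2.

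Testing required 0.5 FPKM or more in at least 3 libraries, a level met by 18006 genes in all and by 32 of the 33 interferon genes. Oas3 did not, with a highest value of 0.323 FPKM. Mx1 passed only through DSS day 89 replicates R29, R38 and R78, so its place among the tested genes depends on the group in which it was high. Its height in that group is therefore no support for a difference, and the counts that compare DSS day 89 include it. Some of these genes have near copies: 51.2% of all 50-base windows in Ifit3 and 45.0% of those in Ifit3b recur in another gene, mainly in each other, and 57.6% of those in Oas1a recur in Oas1g or Oas1b. The sources used here do not say how reads were split between such copies, so these values are uncertain. Ifi35 shares 16.8% of its exonic bases with Gm11626 on the opposite strand, and Rtp4 shares 13.9% with Gm45338.

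**Figure D1:**
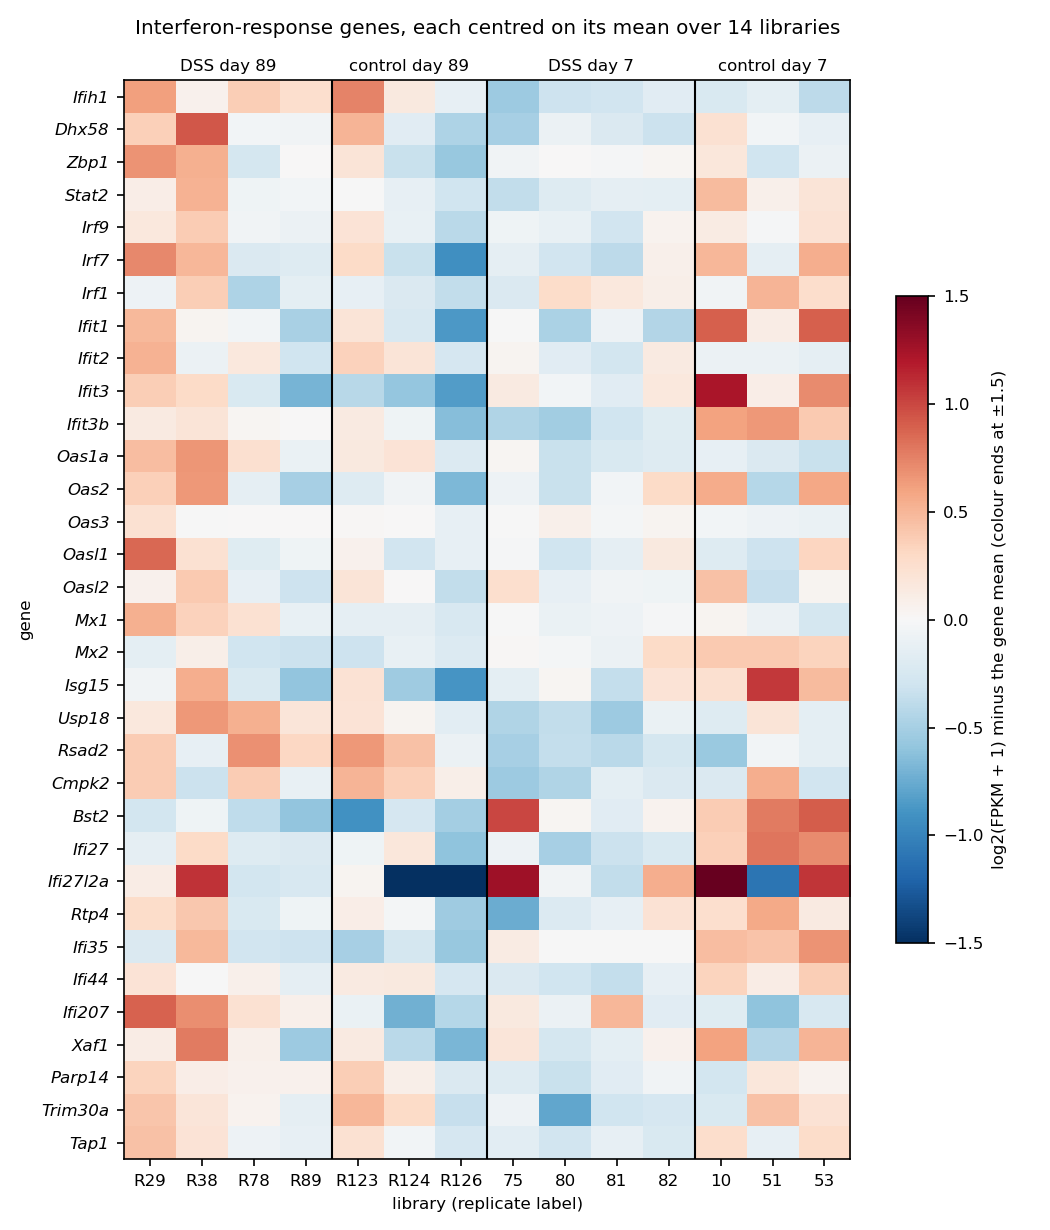
Each of the 33 genes (vertical axis) in each of the 14 libraries (horizontal axis), coloured by log2(FPKM + 1) minus the gene's mean over all libraries, with colours ending at ±1.5. Most cells of DSS day 89 replicates R29 and R38 and of control day 7 replicates 10 and 53 are red, and most cells of control day 89 replicate R126 are blue.

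At day 7, the interferon response genes of this set tended to lie lower in DSS than in control ovaries, but no single gene passed the test. The set was chosen with earlier results of these data known. Over 45 further interferon-stimulated genes tested, 25 lay above 0 and 20 below, with a median of 0.05. Of the 32 genes tested, 27 had a log2 fold change below 0 (84.4%, against 48.9% of all genes tested) and 5 above. Their median was −0.31, against 0.00 for all genes. With limma and Benjamini-Hochberg adjustment over all genes, 0 of 32 were lower and 0 higher at an adjusted p under 0.05, where 0.0278% of all genes were called lower and 0.00555% higher. At an unadjusted p under 0.05, 10 were lower (31.2%, against 7.58% of all genes) and 0 higher (against 8.46%). A test on the recovered reads (voom) also called 0 of the 32, and it called 0 of all 18006 genes.

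The IFIT proteins bind the ends of foreign RNA and stop its translation. Ifit3b stood at 0.631, 0.551, 0.819 and 0.972 FPKM in DSS ovaries, against 2.40, 2.49 and 1.94 FPKM in controls (log2 fold change −0.91, SE 0.17, limma adjusted p = 0.0814). Ifit1 stood at 2.63, 1.64, 2.47 and 1.70 FPKM in DSS ovaries, against 5.81, 2.95 and 5.81 FPKM in controls (−0.88, SE 0.28, adjusted p = 0.169). For both genes all 4 DSS libraries lay below all 3 controls. Ifit3 stood at 6.89, 6.00, 5.36 and 7.01 FPKM in DSS ovaries, against 15.8, 6.66 and 10.7 FPKM in controls (−0.65, SE 0.27, adjusted p = 0.269). Its groups overlapped, since control replicate 51 lay within the DSS values, and without control replicate 10 the fold change was −0.38. Ifit2, whose gene lies in the same cluster on chromosome 19, averaged 2.45 ± 0.456 FPKM in DSS ovaries and 2.35 ± 0.0697 FPKM in controls (SD, n = 4 and 3).

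Ifi27 stood at 97.5, 72.2, 82.05 and 87.2 FPKM in DSS ovaries, against 132, 179 and 169 FPKM in controls. The groups did not overlap (log2 fold change −0.91, SE 0.20, limma adjusted p = 0.0845). Without DSS replicate 75 both Ifi27 (adjusted p = 0.0202) and Ifit3b (adjusted p = 0.0197) were called lower, and 3.32% of all genes were too. Over all alternatives the adjusted p ran from 0.0202 to 0.239 for Ifi27 and from 0.0197 to 0.195 for Ifit3b. Bst2 averaged 448 ± 186 FPKM in DSS ovaries and 593 ± 108 FPKM in controls, with DSS replicate 75 the highest of all at 725 FPKM. Rtp4, a protein that helps receptors reach the cell surface, averaged 6.43 ± 1.94 FPKM in DSS ovaries and 9.56 ± 1.69 FPKM in controls (adjusted p = 0.281).

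Stat2, the partner of Irf9 in the transcription complex, stood at 5.45, 6.29, 6.59 and 6.53 FPKM in DSS ovaries, against 10.5, 7.78 and 8.50 FPKM in controls (log2 fold change −0.46, SE 0.16, limma adjusted p = 0.201). Ifi35, a leucine-zipper protein induced by interferon, stood at 15.3, 13.8, 13.9 and 13.8 FPKM in DSS ovaries, against 19.5, 19.1 and 22.7 FPKM in controls (−0.50, SE 0.18, adjusted p = 0.204). Ifi44 stood at 0.569, 0.477, 0.422 and 0.668 FPKM in DSS ovaries, against 1.29, 0.962 and 1.35 FPKM in controls (−0.52, SE 0.14, adjusted p = 0.136). In each of the 3 genes every DSS library was below every control. Mx2, of the MX family, showed the same separation, with 1.11, 1.04, 0.951 and 1.53 FPKM in DSS ovaries and 1.73, 1.72 and 1.61 FPKM in controls (−0.32, SE 0.14, adjusted p = 0.279). Isg15 averaged 10.7 ± 1.93 FPKM in DSS ovaries and 17.8 ± 5.74 FPKM in controls (adjusted p = 0.292), also without overlap.

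In all, 8 of the 32 genes lay lower in every DSS library than in every control (25.0%, against 5.87% of all genes tested). They were Ifit1, Ifit3b, Ifi27, Ifi35, Ifi44, Isg15, Mx2 and Stat2. A single gene lay higher in every DSS library (3.12%, against 6.24%), the PYHIN family member Ifi207, at 2.78, 2.21, 3.81 and 2.03 FPKM in DSS ovaries and 2.003, 1.23 and 1.89 FPKM in controls. The double-stranded RNA sensor Ifih1 averaged 1.52 ± 0.267 FPKM in DSS ovaries and 1.65 ± 0.222 FPKM in controls. Dhx58, a relative of Ifih1 that modulates RNA sensing, had a log2 fold change of −0.30 (SE 0.26), and the 4 tested OAS genes had log2 fold changes between −0.28 and 0.04.

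The 3 libraries of high mitochondrial share were compared apart from the others, with too few libraries in either set for a test. Within them (1 DSS and 2 control libraries) the median of the 32 genes was −0.31, with 26 below 0. Among the others (3 DSS libraries and 1 control) it was −0.20, with 24 below 0. In the same order, high share and then the others, the log2 fold change was −0.95 and −0.98 for Ifit3b, −0.61 and −1.15 for Ifi27, −0.91 and −0.44 for Ifit1 and −0.83 and −0.11 for Ifit3. It was −0.70 and −0.23 for Stat2, −0.56 and −0.37 for Ifi44, −0.44 and −0.44 for Ifi35 and −0.34 and −0.34 for Mx2. For 8 of the 32 genes the direction differed between the sets (Bst2, Ifi27l2a, Ifit2, Oas1a, Oas2, Oasl1, Xaf1 and Zbp1). The values were −0.23 and 1.13 for Ifi27l2a, 0.35 and −0.81 for Bst2 and −0.64 and 0.40 for Oas2.

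**Figure D2:**
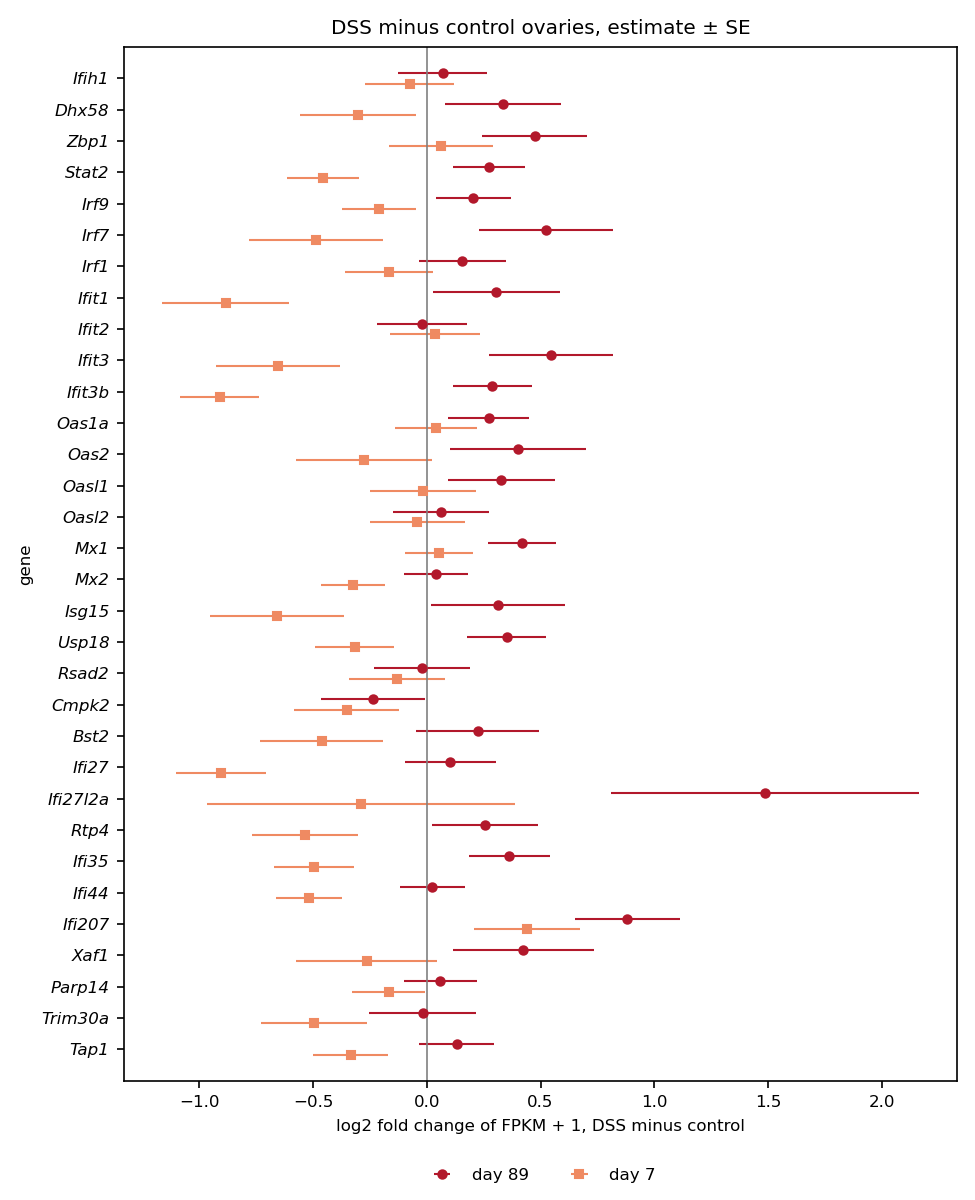
Log2 fold change of FPKM + 1, DSS minus control (horizontal axis), for each tested gene (vertical axis) at day 89 (dark circles) and day 7 (light squares), with bars of 1 SE. At day 7, 27 of 32 squares lie below 0, and at day 89, 28 of 32 circles lie above 0, while no gene passed the threshold on either day.

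At day 89 the same genes tended to lie higher in DSS than in control ovaries, again with no gene past the threshold. Of the 32, 28 had a log2 fold change above 0 (87.5%, against 50.8% of all genes tested) and 4 below (against 49.0%), with a median of 0.27 against 0.00. limma called 0 of 32 higher and 0 lower, where 0.00555% and 0.0% of all genes were called. With voom 0 of the 32 were called, and 0 of all 18006 genes. At an unadjusted p under 0.05, 3 were higher (9.38%, against 2.37% of all genes) and 0 lower (against 2.21%). Mx1 is among these 3 and among the 28, though it passed the filter only through DSS day 89 libraries. The adjusted p of each gene named for this day was 0.924, since few genes of the table differed.

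Ifi207 stood at 5.30, 4.50, 2.99 and 2.58 FPKM in DSS ovaries, against 2.19, 1.07 and 1.53 FPKM in controls, without overlap (log2 fold change 0.88, SE 0.23). It and Mx1 were the 2 genes whose DSS libraries all lay above the controls (6.25%, against 4.04% of all genes), and no gene had all DSS libraries below them (against 4.25%). Of the 2, Mx1 passed the filter only through DSS day 89 libraries, so its separation is no support. Ifi207 reached 0.5 FPKM in all 14 libraries. Mx1 stood at 0.922, 0.699, 0.563 and 0.235 FPKM in DSS ovaries, against 0.211, 0.217 and 0.127 FPKM in controls (0.42, SE 0.15), and the lowest DSS value, in R89, was close to the controls. Ifi27l2a had the largest fold change of the set, 1.49 (SE 0.68), with 34.0, 67.6, 25.8 and 26.5 FPKM in DSS ovaries and 32.6, 5.48 and 9.10 FPKM in controls. Control R123 lay among the DSS values, and without R124 the fold change was 0.99.

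For the other genes of smallest p the groups overlapped. Zbp1, a sensor of Z-form nucleic acid, stood at 1.81, 1.55, 0.468 and 0.769 FPKM in DSS ovaries, against 1.01, 0.400 and 0.190 FPKM in controls (log2 fold change 0.47, SE 0.23). Irf7, the factor that amplifies interferon production, stood at 8.14, 6.85, 3.79 and 3.88 FPKM in DSS ovaries, against 5.79, 3.42 and 1.94 FPKM in controls (0.52, SE 0.29). In both genes R29 and R38 were the high DSS libraries and R126 was the low control. Without R126 the fold change was 0.31 for Zbp1 and 0.22 for Irf7, and without R123 it was 0.83 for Irf7. Ifit3 stood at 8.25, 7.77, 5.12 and 3.44 FPKM in DSS ovaries, against 4.38, 3.78 and 3.01 FPKM in controls (0.55, SE 0.27). Usp18, the protease that removes Isg15 from proteins and blocks the interferon receptor, stood at 2.18, 3.48, 3.14 and 2.23 FPKM in DSS ovaries, against 2.29, 1.94 and 1.55 FPKM in controls (0.35, SE 0.17). Ifi35 stood at 11.8, 19.9, 11.2 and 11.01 FPKM in DSS ovaries, against 9.59, 11.4 and 9.01 FPKM in controls (0.36, SE 0.18), with R38 far above the rest, and without R38 the fold change was 0.17.

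A few libraries carried this direction. Averaged over the 32 genes, the centred log2 level was 0.29, 0.34, −0.02 and −0.17 in DSS day 89 replicates R29, R38, R78 and R89, against 0.11, −0.16 and −0.46 in control replicates R123, R124 and R126. R38 was the highest of the 7 day 89 libraries for 17 genes and R29 for 10, while R126 was the lowest for 23. Without R126 the median fold change of the 32 genes was 0.08, and over the other single removals it reached 0.35, without R123. At day 7 the level was −0.07, −0.22, −0.18 and −0.03 in DSS replicates 75, 80, 81 and 82, against 0.25, 0.08 and 0.24 in control replicates 10, 51 and 53. The 4 DSS libraries of day 7 thus lay below the 3 controls of that day, while the day 89 groups overlapped.

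**Figure D3:**
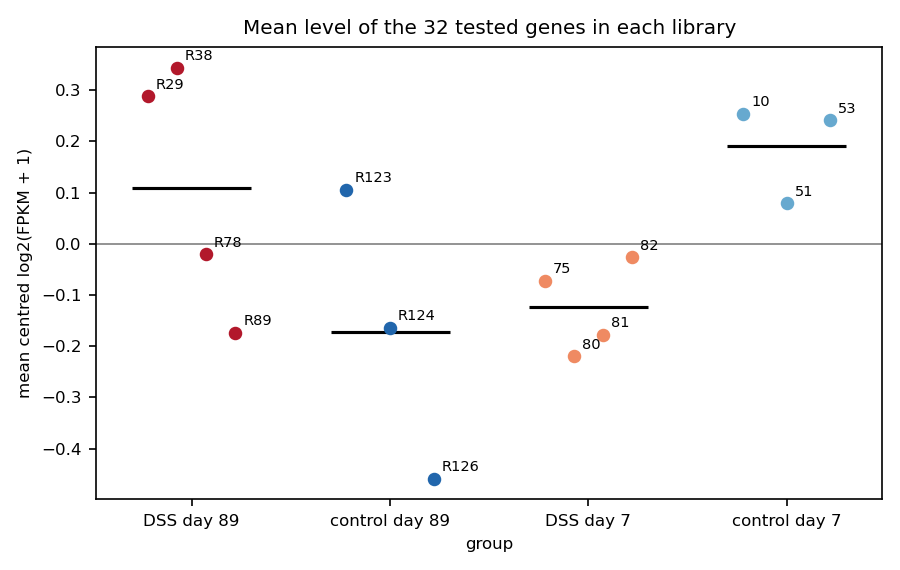
Mean over the 32 tested genes of log2(FPKM + 1), centred per gene over 14 libraries (vertical axis), for each library (points with replicate labels) in the 4 groups, with lines at the group means. DSS day 89 spans −0.17 to 0.34 and overlaps control day 89 (−0.46 to 0.11), whereas DSS day 7 (−0.22 to −0.03) lies below control day 7 (0.08 to 0.25).

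Between day 7 and day 89, 4 interferon genes rose in DSS ovaries: Usp18, Rsad2, Ifih1 and Oas1a. That is 12.5% of the 32, near the 10.7% of all genes tested. None fell (limma, 0 of 32 lower, against 10.7% of all genes lower). At an unadjusted p under 0.05 Bst2 alone was lower (against 18.2%) and 10 were higher (against 18.4%). With voom 0 of the 32 were lower, against 1829 of 18006 genes. The median log2 fold change was 0.29 and 25 of 32 genes lay above 0 (78.1%, against 50.4%) and 7 below (against 49.6%). In 8 genes every DSS day 89 library exceeded every DSS day 7 library (25.0%, against 12.2% of all genes tested), and in none was every day 89 library lower (against 12.7%). All mice of a day share that day, so time, age, handling and sequencing run cannot be told apart.

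Usp18 stood at 2.18, 3.48, 3.14 and 2.23 FPKM in DSS ovaries at day 89, against 1.09, 1.21, 0.947 and 1.66 FPKM at day 7 (log2 fold change 0.75, SE 0.16, limma adjusted p = 0.00736). It was called under all 24 alternatives, with adjusted p from 0.00466 to 0.0279. Rsad2, or viperin, which makes a chain-ending nucleotide that stops viral polymerases, stood at 1.49, 0.756, 2.08 and 1.38 FPKM at day 89, against 0.360, 0.496, 0.451 and 0.594 FPKM at day 7 (0.69, SE 0.20, adjusted p = 0.0246). Ifih1 stood at 3.81, 2.29, 3.07 and 2.74 FPKM at day 89, against 1.16, 1.54, 1.58 and 1.79 FPKM at day 7 (0.65, SE 0.18, adjusted p = 0.0231). For these 3 genes no day 89 library overlapped the day 7 libraries. Oas1a stood at 3.43, 4.08, 2.79 and 2.01 FPKM at day 89, against 2.28, 1.55, 1.74 and 1.81 FPKM at day 7 (0.50, SE 0.17, adjusted p = 0.0460), and R89 overlapped day 7. In control ovaries the change was 0.58 for Rsad2, 0.51 for Ifih1, 0.27 for Oas1a and 0.08 for Usp18, none of them called. In the same order, the change in DSS ovaries exceeded that in controls by 0.11 (SE 0.30), 0.14 (SE 0.28), 0.23 (SE 0.25) and 0.67 (SE 0.24). None of these differences was called.

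The calls other than Usp18 depended on single libraries. Ifih1 was not called without DSS replicate 75, R29 or R78 (adjusted p from 0.0591 to 0.0754). Rsad2 was not called without 75, 81, R29, R78 or R89 (adjusted p from 0.05105 to 0.0805). Oas1a was not called in 15 of 24 alternatives, among them the removal of control replicates 10, 53, R123 or R124 and of DSS replicates 80, 81, 82, R29, R38 or R78 (adjusted p from 0.0513 to 0.121). Without the libraries of high mitochondrial share, and likewise without R29 or without R78, Usp18 alone was called. Of all genes 8.14% were called higher without the high-share libraries. Once each library's trend with gene length was removed, Ifit3b, Oas1a, Rsad2 and Usp18 were called, and Ifih1 was not (adjusted p = 0.0875), while 8.05% of all genes were called higher.

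In control ovaries 8 interferon genes fell between day 7 and day 89: Bst2, Ifit3, Ifit1, Ifit3b, Isg15, Ifi35, Ifi27 and Mx2. That is 25.0% of the 32, against 15.7% of all genes tested. None rose (limma, 0 of 32 higher, against 16.1% of all genes higher). At an unadjusted p under 0.05 Ifih1 and Rsad2 were higher (against 21.8%) and 11 were lower (against 21.5%). With voom 0 of the 32 were higher, against 2981 of 18006 genes. The median was −0.24, and 24 of 32 genes lay below 0 (against 50.3% of all genes) and 8 above (against 49.4%). In 10 genes every control day 89 library lay below every control day 7 library (31.2%, against 22.2% of all genes tested), and in Ifih1 alone all lay above (against 22.8%).

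Bst2 stood at 193, 305 and 255 FPKM in control ovaries at day 89, against 472, 624 and 682 FPKM at day 7 (log2 fold change −1.25, SE 0.29, limma adjusted p = 0.00619). Ifit3 stood at 4.38, 3.78 and 3.01 FPKM at day 89, against 15.8, 6.66 and 10.7 FPKM at day 7 (−1.29, SE 0.29, adjusted p = 0.00540). Ifi35 stood at 9.59, 11.4 and 9.01 FPKM at day 89, against 19.5, 19.1 and 22.7 FPKM at day 7 (−0.97, SE 0.19, adjusted p = 0.00242). In these 3 genes the days did not overlap. Ifit3b stood at 1.45, 1.13 and 0.427 FPKM at day 89, against 2.40, 2.49 and 1.94 FPKM at day 7 (−0.74, SE 0.19, adjusted p = 0.00916). Mx2 stood at 0.681, 0.921 and 0.794 FPKM at day 89, against 1.73, 1.72 and 1.61 FPKM at day 7 (−0.58, SE 0.15, adjusted p = 0.0107). Both again separated the days without overlap, with R126 the lowest day 89 library for Ifit3b.

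Ifi27 stood at 97.9, 116 and 67.1 FPKM in control ovaries at day 89, against 132, 179 and 169 FPKM at day 7 (log2 fold change −0.79, SE 0.21, limma adjusted p = 0.0133), and it was not called without R126 (adjusted p = 0.0662). Isg15 stood at 13.1, 7.38 and 5.56 FPKM at day 89, against 13.3, 24.2 and 15.8 FPKM at day 7 (−0.99, SE 0.32, adjusted p = 0.0292). Its highest day 89 value, in R123, was just under its lowest day 7 value. Isg15 was not called without 51, 53, R124 or R126 (adjusted p from 0.0587 to 0.122). Ifit1 stood at 3.17, 2.08 and 1.01 FPKM at day 89, against 5.81, 2.95 and 5.81 FPKM at day 7 (−0.94, SE 0.30, adjusted p = 0.0290), with 1 value of each day overlapping. It was not called without 10, 53, R124 or R126 (adjusted p from 0.0577 to 0.128). Ifi27l2a had a larger difference that was not called, at 32.6, 5.48 and 9.10 FPKM on day 89 and 122.8, 14.2 and 67.2 FPKM on day 7 (−1.96, SE 0.72, adjusted p = 0.0532).

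Gene length and mitochondrial share moved with this comparison. Over the 18006 genes tested the Spearman correlation of the log2 fold change with gene length was 0.37 in controls, so longer genes tended to lie higher at day 89. It was 0.32 between the days in DSS ovaries. For DSS against control it was 0.05 at day 7 and −0.26 at day 89, and for the difference between these effects −0.20. In the same order, it was 0.54, 0.27, 0.34, −0.46 and −0.57 over the 32 interferon genes. The 8 genes that fell in controls had a median length of 1736 bases, against 3422 for all genes tested. With each library's length trend removed, 6 of 32 were called lower (Bst2, Ifi35, Ifi44, Ifit3, Mx2 and Stat2) and 1 higher (Oas1a), against 14.8% and 12.9% of all genes. With a term for the libraries of high mitochondrial share 6 were called lower (Ifi35, Ifit3b, Irf1, Isg15, Mx2 and Rtp4), against 8.38% of all genes. In that fit Bst2 (−0.93, adjusted p = 0.0590), Ifit3 (−0.96, adjusted p = 0.0600), Ifi27 (−0.77, adjusted p = 0.0559) and Ifit1 (−0.58, adjusted p = 0.239) were not called. When the libraries of high mitochondrial share were left out, control day 7 kept replicate 51 alone. Bst2, Ifi27 and Isg15 were then called lower (3 of 32, against 9.2% of all genes), with that lone library assumed to vary like the others. Without R126, 5 were called lower (against 10.8%) and 2 higher (Ifih1 and Rsad2, against 11.4%), and the median was −0.10.

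**Figure D4:**
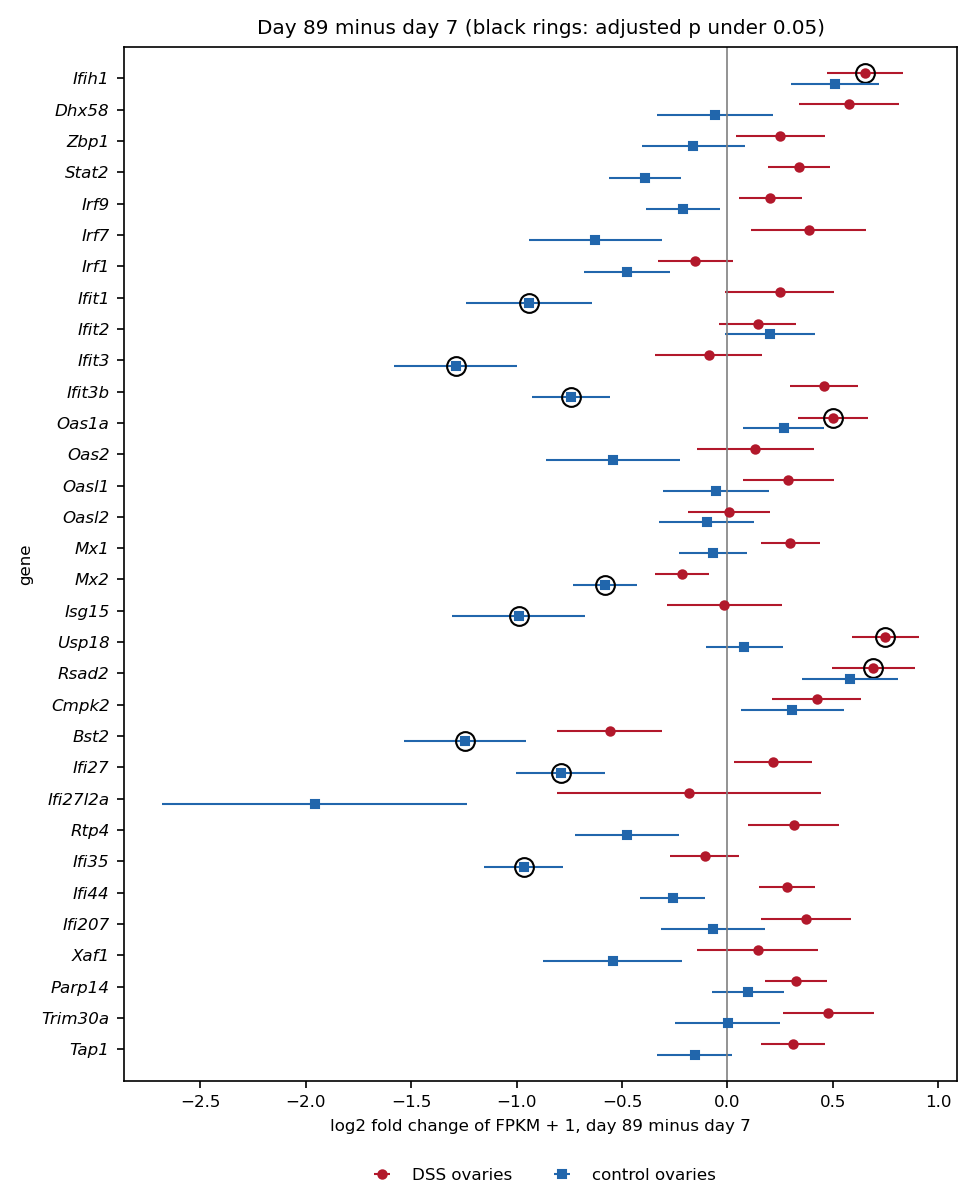
Log2 fold change of FPKM + 1, day 89 minus day 7 (horizontal axis), for each tested gene (vertical axis) in DSS ovaries (red circles) and control ovaries (blue squares), with bars of 1 SE and black rings at an adjusted p under 0.05. The 4 ringed circles lie between 0.50 and 0.75, and the 8 ringed squares between −1.29 and −0.58.

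**Figure D5:**
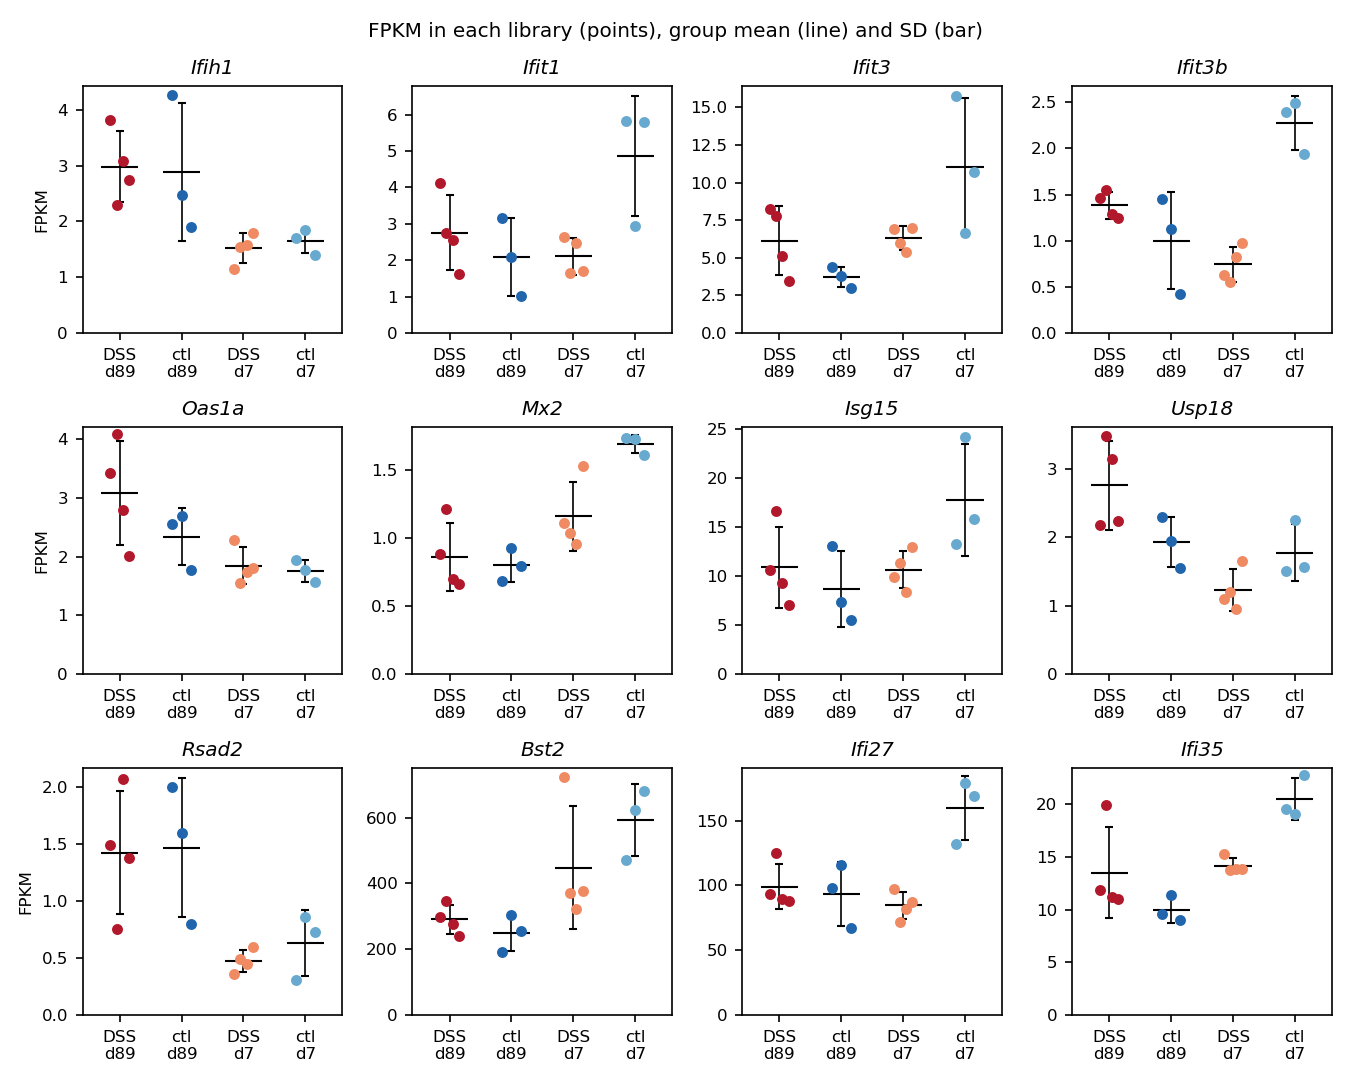
FPKM (vertical axes, from 0) of the 12 genes called in either comparison of days, with a point per library, a line at the group mean and a bar of 1 SD, for DSS day 89, control day 89 (ctl d89), DSS day 7 and control day 7 (ctl d7). Control day 7 has the highest mean for Ifit1, Ifit3, Ifit3b, Mx2, Isg15, Bst2, Ifi27 and Ifi35, and the day 89 groups have the higher means for Ifih1, Oas1a, Usp18 and Rsad2.

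The design also asks whether the DSS effect differed between the days, tested as the DSS effect at day 89 minus that at day 7. No interferon gene passed (0 of 32, against 0.0% of all genes in either direction, by limma and by voom). At an unadjusted p under 0.05, 11 were higher (34.4%, against 4.37% of all genes) and 0 lower (against 4.08%). Of the 32, 31 had a difference above 0 (96.9%, against 49.2% of all genes) and 1 below (against 50.8%). Their median was 0.51, and the exception was Ifit2 at −0.06. The wider set did not show this shift: over 45 further interferon-stimulated genes tested, 27 lay above 0 and 18 below, with a median of 0.07. The 32 genes were chosen with earlier results of these data known. The difference was 1.20 for Ifit3b (SE 0.25, limma adjusted p = 0.316), 1.01 for Ifi27 (SE 0.28, adjusted p = 0.474) and 0.86 for Ifi35 (SE 0.25, adjusted p = 0.487). It was 1.20 for Ifit3 and 1.19 for Ifit1. The 5 comparisons use the same 14 libraries, so their directions are tied to each other and are not separate results.

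The ligands themselves were at the edge of detection. Of 18 type I interferon genes in the table, 10 were listed at 0 in every library and none passed the filter. The highest value was 2.07 FPKM for Ifna7, from 16 reads in 1 DSS day 7 library. Of the 3 type II and III interferon genes none passed, and the highest value was 0.558 FPKM for Ifnl3.

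Receptors and kinases of the pathway, 9 genes and all tested, had a median DSS effect of 0.24 at day 7 and 0.04 at day 89, with 0 called on either day. Ifngr1, a chain of the interferon gamma receptor, had the smallest p at day 7: it averaged 17.4 ± 1.08 FPKM in DSS ovaries and 13.3 ± 0.878 FPKM in controls (SD, n = 4 and 3; log2 fold change 0.36, SE 0.14, limma adjusted p = 0.238). Its libraries did not overlap, with 15.9 to 18.4 FPKM in DSS ovaries and 12.4 to 14.1 FPKM in controls. Il10rb, a chain of the interleukin 10 and interferon lambda receptors, separated the other way, with 14.1 to 18.3 FPKM in DSS ovaries and 21.7 to 30.2 FPKM in controls (−0.59, SE 0.32, limma adjusted p = 0.389). Between the days in controls Jak1, Jak2, Tyk2, Ifnar1 and Ifngr1 rose, by 0.53 to 1.00, and 0 of the 9 fell, against 16.1% and 15.7% of all genes. In DSS ovaries 0 of the 9 were called between the days, with 5 higher and 1 lower at an unadjusted p under 0.05 (against 18.4% and 18.2%).

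Genes that sense nucleic acid upstream of interferon showed 5 rises and no fall among 17 tested in DSS ovaries between the days, where 10.7% of all genes rose and 10.7% fell. They were the RNA sensor Ddx58 (RIG-I; 0.67), its adaptor Mavs (0.67), the RNA editor Adar (0.78), the Toll-like receptor adaptor Ticam1 (0.53) and the DNA receptor Tlr9 (0.73). Adar and Tlr7 rose in controls too, by 0.74 and 0.58, while the kinase Ikbke fell by 0.71 there (2 and 1 of 17, against 16.1% and 15.7% of all genes). Of 7 feedback regulators, the phosphatase Ptpn2 fell between the days (−0.64 in DSS ovaries and −0.72 in controls) and the ubiquitin ligase Rnf125 rose (0.99 and 1.48). Of 10 class I presentation genes, the trimming peptidase Erap1 rose (0.76 and 0.97), and in controls the immunoproteasome subunits Psmb10 and Psmb8 and the chaperone Tapbp fell by 0.99, 0.67 and 0.69. Of all genes, 10.7% rose and 10.7% fell in DSS ovaries, and 16.1% and 15.7% did in controls. A single call among 7 or 10 genes is near those shares. None of these lists held a gene called for DSS against control on either day. Changes between the days in these lists, and in the wider list that follows, were not corrected for the trend with gene length. They include the libraries of high mitochondrial share.

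A wider list held 54 further interferon-stimulated genes in the table, 45 of them tested. Its median DSS effect was 0.05 at day 7, with 25 genes above 0 and 20 below, and 0.20 at day 89, with 36 above and 9 below. No gene of it was called for DSS on either day. Between the days 7 rose and 7 fell in DSS ovaries (against 10.7% of all genes each), and 5 rose and 6 fell in controls (against 16.1% and 15.7%). Among those that rose in both were Rnf213 (1.11 in DSS ovaries and 1.26 in controls), Lgals3bp (1.42 and 1.72) and Dtx3l (0.73 and 1.09).

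Markers of other cells moved with the groups. Summed over 10 macrophage markers, all tested, FPKM was 284 to 367 in DSS ovaries and 130 to 185 in controls at day 7, the opposite direction to the interferon genes, and 259 to 591 against 160 to 285 at day 89. Plasmacytoid dendritic cell markers (7 genes, 5 tested) summed to 6.13 to 14.9 in DSS ovaries and 14.5 to 20.9 in controls at day 7, and to 6.22 to 29.3 against 17 to 18.5 at day 89. Most of the day 7 difference lay in Runx2, which averaged 5.27 FPKM in DSS ovaries and 11.4 FPKM in controls, while Pacsin1 averaged 1.18 and 0.811 FPKM. The defining Siglech stood at 0.124 to 0.395 FPKM in DSS ovaries and 0.192 to 0.374 FPKM in controls at day 7. Erythrocyte markers (7 genes, 5 tested) summed to 410 to 726 against 49.9 to 310 at day 7 and 44.4 to 656 against 42.7 to 45.6 at day 89. Neutrophil markers (10 genes, 5 tested) summed to 13.2 to 133 against 1.81 to 3.68 at day 7, where Retnlg and Cxcr2 were at 0 in every control. S100a8, S100a9 and Retnlg made up most of that sum, while Camp averaged 0.185 FPKM in DSS ovaries and 0.590 FPKM in controls, Ltf 0.462 and 1.01 FPKM, and Ly6g 0.0788 and 0.141 FPKM. B and plasma cell markers (8 genes, 5 tested) summed to 20.2 to 56.4 against 8.58 to 9.92 at day 89. Surface epithelium markers (6 genes, all tested) lay on the same side as the interferon genes at day 7, at 33.8 to 64.6 in DSS ovaries and 68.1 to 74.6 in controls, and stood at 25.6 to 33.5 in controls at day 89. Theca and interstitial markers (5 genes, all tested) averaged a sum of 46.1 ± 8.78 in DSS ovaries and 83.9 ± 33.8 in controls at day 7 (SD, n = 4 and 3), without overlap. Most of that difference lay in Lhcgr, also a luteal marker (15.7 and 35.3 FPKM), and Cyp17a1 (5.35 and 22.1 FPKM). Insl3 went the other way, at 3.45 FPKM in DSS ovaries and 1.45 FPKM in controls. Luteal markers (8 genes, all tested) summed to 4420 to 4890 at day 89 and 2430 to 3470 at day 7 in controls. The part of these cells in the differences of interferon genes was not tested.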

How the data were processed

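RNA-seq libraries (TruSeq, total RNA, per the labels' protocols) were processed with HISAT2 2.0.5 and GRCm38, per the submitters' processing notes. The sources used here name no counter, annotation release, strand setting or rule for multiply mapped reads. The authors deposited FPKM and a length for 56748 genes in 14 libraries. Up to 300 reads, 100% of the values, multiplied by gene length, came within 0.01 of a whole read, and depth was taken from these steps.

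Genes with an FPKM of at least 0.5 in at least 3 libraries were tested as log2(FPKM + 1), which understates changes of low genes. limma 3.58.1 (limma-trend, R 4.3.3) fitted 4 group means to all libraries, with Benjamini-Hochberg adjustment over 18006 genes and a threshold of 0.05. The procedure was tested on simulated data. Called means past this threshold. Alternatives were voom with TMM factors on the recovered reads, pseudocount 0.1, other filters and scalings, a mitochondrial term, length-trend removal and the removal of each library.

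The genes, the lists and the rule for naming were chosen with earlier results of these data known. Of the pathway lists, 1 gene is not reported here. Values in every library are given for genes past the threshold in any comparison and for the 8 of smallest p for DSS against control on each day. Overlaps with other genes come from GENCODE M21.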

Additional observations from a re-analysis of the deposited data

Results flagged for a closer look

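In 66 groups of 4 libraries (33 genes in the DSS groups of both days), the highest or lowest library was compared with its nearest neighbour, and 5 groups held a library whose gap to the next passed the critical value of Dixon's gap test. Chance gives about 1 in 20 groups, so 5 of 66 is near that rate. In DSS day 89 ovaries, R38 was apart for Ifi27 at 125.3 FPKM (gap 0.835 of the range) and for Ifi35 at 19.93 FPKM (0.881). In the same group R29 was apart for Oas3 at 0.3229 FPKM (0.924) and for Parp14, an ADP-ribosyltransferase, at 4.695 FPKM (0.834). In DSS day 7 ovaries, replicate 75 was apart for Ifi35 at 15.26 FPKM (0.95), and it is the DSS library of high mitochondrial share. All 5 were the highest library of their group.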

How the results depend on the processing

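No paired analysis was possible because no replicate number recurs between the groups. Values of 28 named gene results were recomputed under 24 alternatives, 14 of which leave out a library. Of 668 values none reversed, 609 kept their side of the threshold, 56 lost a call and 3 gained it. Most of the 609 belong to results that were not called in the first place, so they say little on the calls. Among the called results, Usp18 in DSS ovaries kept its call in all 24 alternatives, and Oas1a lost it in 15. For DSS against control at day 7, 1 gene was called lower without the libraries of high mitochondrial share (Ifi27, against 2.22% of all genes), and 0 to 2 when single libraries were left out. Over the same single removals 0 to 597 of 18006 genes were called lower. For day 89 against day 7 in DSS ovaries, 1 gene was called higher with no filter on low values (against 1415 of 35722 genes). Without the libraries of high mitochondrial share 1 was (against 1465 of 18006), and 1 to 5 were when single libraries were left out (against 995 to 2560). In controls, 4 were called lower with only the compared libraries in the fit (against 2317 of 18006 genes). When single libraries were left out, 5 to 10 were (against 1837 to 3217). With the length trend removed 1 was called higher in controls (against 2324 of 18006 genes), and 0 to 2 were when single libraries were left out (against 1858 to 3246). The median in controls was −0.45 with pseudocount 0.1, −0.48 at a mean FPKM of at least 1 and −0.46 with voom, and ran from −0.37 without R123 to −0.10 without R126, and the median difference between the DSS effects was 0.85 with pseudocount 0.1 and 0.83 with voom. The median DSS effect ran from −0.41 to −0.20 at day 7 and from 0.23 to 0.33 at day 89 over the alternatives that keep the groups whole or drop the libraries of high mitochondrial share. The cause of these shifts was not tested. Genes under 1 FPKM rest on few reads: Mx1 on 5 to 49 and Oas3 on 4 to 36 in a library.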

Other observations

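Among the further interferon-stimulated genes, 4 of the mouse Oas1 cluster fell between the days. Oas1d is known in mice for its expression in oocytes. Oas1c averaged 4.25 ± 1.36 FPKM at day 89 and 14.5 ± 2.33 FPKM at day 7 in DSS ovaries, and 3.78 ± 2.08 FPKM at day 89 and 11.3 ± 4.65 FPKM at day 7 in controls (SD, n = 4 and 4, then 3 and 3). Oas1e averaged 8.68 ± 4.03 FPKM at day 89 and 30.1 ± 6.84 FPKM at day 7 in DSS ovaries, and 7.004 ± 4.79 and 19.3 ± 8.09 FPKM in controls at the same days. Oas1c, Oas1d, Oas1e and Oas1h fell in both, by 1.59, 1.74, 1.74 and 1.83 on the log2 scale in DSS ovaries (limma adjusted p from 0.00352 to 0.0159) and by 1.40, 1.31, 1.53 and 1.33 in controls (adjusted p from 0.0123 to 0.0388). Oas1a, in the same cluster, rose in DSS ovaries by 0.50. Summed FPKM of 10 oocyte markers was 57.5 to 171 at day 89 and 292 to 467 at day 7 in DSS ovaries, and 32.7 to 136 at day 89 and 137 to 260 at day 7 in controls. The part of oocyte number in these differences was not tested.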
